A study of Mus musculus with 24 samples.

Results

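The small proline-rich protein genes are described here in cultured mouse airway epithelium exposed to cigarette smoke or to air. The 8 genes Sprr1a, Sprr1b, Sprr2a3, Sprr2d, Sprr2f, Sprr2g, Sprr2h and Sprr3 were taken by symbol from the 25239 genes of the table of normalised counts. They were chosen because earlier results of these data had shown them higher under smoke, so their smoke values are given as a description. They are also the Sprr genes whose mean normalised count over the 24 libraries reached 10. Sprr2g, at 18.9, and Sprr1b, at 23.6, lay just inside that limit and Sprr2e, at 7.89, just outside it. Sprr1b, Sprr2f, Sprr2g and Sprr2h averaged under 10 in the air libraries and passed through their smoke values. A difference in these 4 was thus built into their choice. For Sprr2f, Sprr2g and Sprr2h those were the female smoke values, so a higher female level was also in part built in.

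Small proline-rich proteins are short proteins that are cross-linked by transglutaminases into the cornified envelope, the protein shell under the membrane of squamous cells such as those of skin, oral cavity and oesophagus. Their genes lie side by side in the epidermal differentiation complex, a stretch of the genome that also holds involucrin and loricrin, other envelope precursors. In airway epithelium they are known from squamous metaplasia and from injury, and Sprr1a and Sprr2 genes are also known as stress-induced genes in other tissues.

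The cultures were primary tracheal epithelial cells grown on inserts and differentiated at an air-liquid interface over 10 to 14 days. The mice were wild-type FVB/NJ, 7 to 8 weeks of age. Female smoke, female air, male smoke and male air each had 6 inserts. The smoke inserts received cigarette smoke for 10 days, with 2 cigarettes burned over about 8 minutes per exposure, and the air inserts received humidified air for as long. No donors are named, and all inserts of 1 sex may stem from 1 preparation, so p-values measure only the spread between inserts and sex cannot be told apart from preparation. Depth was 16038813 to 24485024 reads in the 23 libraries whose whole reads could be recovered. In insert 1 of female air and insert 4 of female smoke the deviation from the group median moved with exon length across genes (Spearman -0.664 and -0.423, with 5449 and 3475 genes over 2-fold from the median). Without both libraries the female log2 fold changes of the 8 genes lay between 2.16, for Sprr2a3, and 7.73, for Sprr2f, and the genes called in female over male air were those of all libraries plus Sprr3 (1.85, adjusted p = 0.044). Summed basal, ciliated and secretory markers were detected in all 24 libraries.

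All 16 Sprr symbols of the table lie on mouse chromosome 3 between 92215835 and 92500493 (mm10), an interval of 284.7 kb. The deposited annotation places no other gene of the table of normalised counts in it. The 12 Sprr2 symbols are on the plus strand, and Sprr1a, Sprr1b, Sprr3 and Sprr4 on the minus strand. Each of the 8 genes has 2 exons. Their summed exons run between 609 bases in Sprr2f (92365187 to 92366442) and 1222 bases in Sprr3 (92456502 to 92458720).

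RefSeq (GRCm38.p6) gives a promoter window for 7 of the 8 genes, and Sprr2g has none in the table used. The 250 bases before the annotated start are shown for 3 Sprr2 genes with high smoke ratios, for Sprr1a as the most abundant Sprr1 gene, and for Sprr2a3, whose smoke difference was the smallest in female cells. Capitals mark matches on either strand to TGANTCA (the motif of AP-1, the Fos and Jun dimer), ATTTGCAT (the octamer of POU-domain factors) and TATAAA (the TATA box).
Sprr2d chr3:92338890-92339139 (plus strand): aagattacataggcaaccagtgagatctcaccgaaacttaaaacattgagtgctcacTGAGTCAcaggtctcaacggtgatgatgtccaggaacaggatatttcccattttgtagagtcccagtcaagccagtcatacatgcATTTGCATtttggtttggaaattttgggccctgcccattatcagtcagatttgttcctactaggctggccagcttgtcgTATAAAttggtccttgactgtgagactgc
Sprr2f chr3:92364937-92365186 (plus strand): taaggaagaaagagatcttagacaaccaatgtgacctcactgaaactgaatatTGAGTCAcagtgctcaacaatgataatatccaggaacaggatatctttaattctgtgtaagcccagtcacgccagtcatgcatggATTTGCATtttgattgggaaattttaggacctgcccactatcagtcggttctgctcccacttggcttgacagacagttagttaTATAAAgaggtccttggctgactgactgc
Sprr2h chr3:92385435-92385684 (plus strand): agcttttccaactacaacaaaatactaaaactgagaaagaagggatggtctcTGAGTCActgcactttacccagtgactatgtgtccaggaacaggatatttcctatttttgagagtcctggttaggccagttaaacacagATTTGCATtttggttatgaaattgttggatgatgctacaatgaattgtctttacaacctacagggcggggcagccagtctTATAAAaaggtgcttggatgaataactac
Sprr1a chr3:92485882-92486131 (minus strand): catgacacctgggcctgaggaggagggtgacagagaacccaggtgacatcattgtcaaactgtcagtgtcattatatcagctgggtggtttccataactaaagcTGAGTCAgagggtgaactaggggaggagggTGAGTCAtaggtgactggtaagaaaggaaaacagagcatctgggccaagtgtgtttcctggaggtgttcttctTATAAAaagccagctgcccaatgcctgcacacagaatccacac
Sprr2a3 chr3:92285054-92285303 (plus strand): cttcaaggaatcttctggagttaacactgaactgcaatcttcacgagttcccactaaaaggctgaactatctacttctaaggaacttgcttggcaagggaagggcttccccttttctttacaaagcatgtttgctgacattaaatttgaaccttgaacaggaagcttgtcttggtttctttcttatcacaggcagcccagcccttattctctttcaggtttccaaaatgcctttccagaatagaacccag

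The Sprr2d, Sprr2f and Sprr2h windows hold the same 3 motifs in the same order. The AP-1 motif begins 193, 197 and 198 bases before the start in Sprr2d, Sprr2f and Sprr2h, the octamer 108, 112 and 109 bases before it, and the TATA motif 29 bases before it in each. No match to these 3 motifs overlaps another. Sprr2d shares 73.6% of its window with Sprr2f and 66.8% with Sprr2h, so these are copies of related sequence and not independent matches. Over all 32851 RefSeq windows of this length, 6.75% hold the AP-1 motif, 1.6% the octamer and 12.4% the TATA motif. Sprr1a has 2 AP-1 motifs, at 146 and 116 bases, and a TATA motif at 43 bases. Sprr1b has 1 AP-1 motif at 111 bases and a TATA motif at 30 bases, and Sprr3 only a TATA motif at 33 bases. None of the 3 motifs is in the Sprr2a3 window. That window aligned with those of Sprr2d, Sprr2f and Sprr2h over only 4, 4 and 22 bases. It may not match theirs in position, so a lack of these motifs near Sprr2a3 is not read from it.

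**Figure D1:**
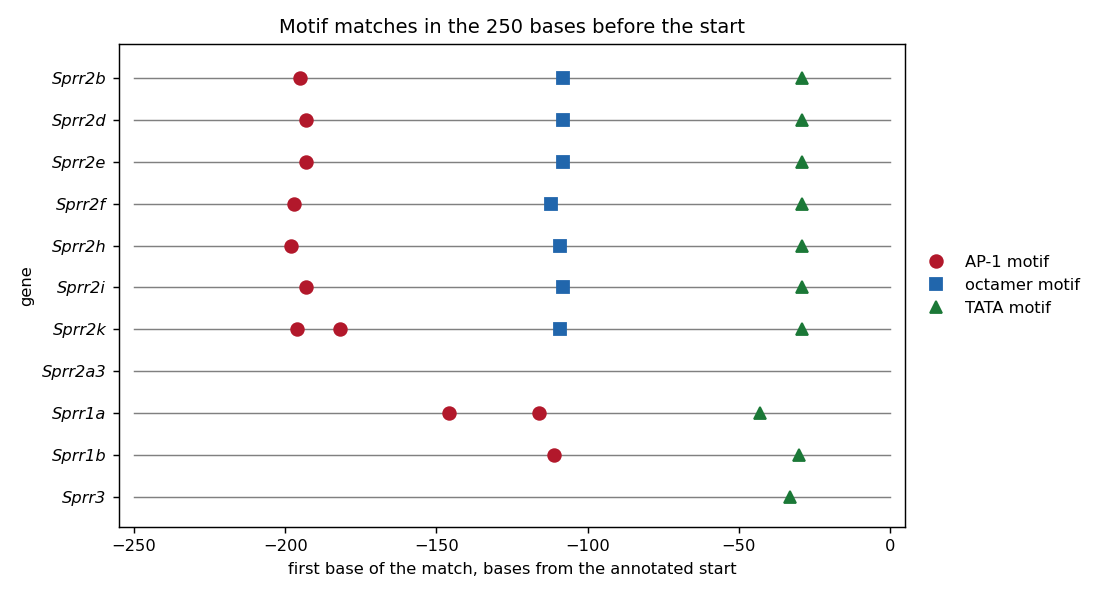
Positions of motif matches in the 250 bases before the annotated start of 11 Sprr genes. The x axis gives the first base of each match in bases from the start and each row is 1 gene. Sprr2b, Sprr2d, Sprr2e, Sprr2f, Sprr2h, Sprr2i and Sprr2k share the order of AP-1, octamer and TATA motifs, with a second AP-1 motif in Sprr2k, while Sprr1a, Sprr1b and Sprr3 lack the octamer and the Sprr2a3 row is empty.

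In female cells all 8 genes were higher under smoke, and in every 1 of them the 6 smoke inserts lay above the 6 air inserts. Such a clean separation was found for 6.73% of the 13549 genes tested, and 15.5% were called higher (limma, Benjamini-Hochberg adjusted p under 0.05), as were 8 of these 8. The genes were chosen on this comparison, so nothing is read from that count. In bulk RNA, fewer cells of a type and less RNA per cell cannot be told apart. Fold changes below are on the scale of log2(normalised count + 1), which understates the change of low genes, so a ratio of group means or of reads is given with most of them.

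The Sprr2 genes Sprr2f, Sprr2h and Sprr2d, which encode small envelope proteins, had the highest fold changes in female cells. Sprr2f had normalised counts of 1111, 3100.4, 1192, 312, 423 and 863 in female smoke inserts 1 to 6, against 4.56, 7.94, 5.46, 2.18, 2.78 and 4.08 in female air inserts 1 to 6. Every smoke insert was above every air insert, and smoke insert 2 stood far above the others. The log2 fold change was 7.41 ± 0.45 (SE, n = 6 per group), and the ratio of means was 259. Sprr2d had 634, 2466 and 3340.4 as its lowest, median and highest female smoke values, against 14.6, 23.6 and 54.7 in female air, a log2 fold change of 6.18 ± 0.43 and a ratio of 80.9. Sprr2h ranged between 52.5 and 327 with a median of 247 in female smoke, against 0.910 to 3.04 with a median of 1.05 in female air, a log2 fold change of 6.34 ± 0.43 and a ratio of means of 157. Its air level rests on 7 reads over 6 libraries.

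Sprr2g, the lowest of the Sprr2 genes here, had 25.9, 50.9 and 194 as its lowest, median and highest values in female smoke, against 0, 1.38 and 4.56 in female air. Its log2 fold change was 4.69 ± 0.55 and its ratio 44.1, which was 28.5 without female smoke insert 2 and 70.7 without female air insert 1. Sprr2a3 was already abundant in air and changed least. It had 1865, 2771 and 7473 in female smoke, against 359, 633 and 1212.5 in female air, a log2 fold change of 2.37 ± 0.44 and a ratio of 5.47. Its highest value was in female smoke insert 4, without which the log2 fold change was 2.11 and the ratio 4.29. Of the 50-base stretches of its GENCODE transcript, 61.1% are shared with Sprr2a1, so reads of the Sprr2a copies may have been split or dropped, and its level is uncertain. Sprr2a1 and Sprr2a2, which the annotation puts at the same positions, were listed at 0 in every library.

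Sprr1a and Sprr1b, the cornifins, and Sprr3, the family member known from oesophagus and oral mucosa, were uneven between the female smoke inserts. Sprr1a had 903, 7802, 1081, 4595, 4157 and 754 in female smoke inserts 1 to 6, against 58.8 to 111 with a median of 68.1 in female air. Inserts 2, 4 and 5 stood at 4157 or more and the other smoke inserts at 1081 or less. The log2 fold change was 4.87 ± 0.53 and the ratio 42.5. Sprr1b was high in the same 3 inserts, at 105, 70.7 and 113, against 11.2 to 16.5 in the other smoke inserts and 0 to 2.04 in female air. Female air held 3 reads of it in all and female smoke 299, a ratio of 97.6 with a 95% counting interval of 33.1 to 476, and of 242 without female air insert 6, which held 2 of the 3 air reads. Sprr3 had 126, 205, 153, 2325, 2674 and 245 in female smoke inserts 1 to 6, against 32.9 to 53.0 with a median of 36.5 in female air. Inserts 4 and 5 alone carried most of its smoke mean of 955 ± 1203 (SD, n = 6). Its log2 fold change was 3.43 ± 0.77, and 2.93 without female air insert 1 and female smoke insert 4. The ratio of means was 24.3, and 15.5 without female smoke insert 5.

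**Figure D2:**
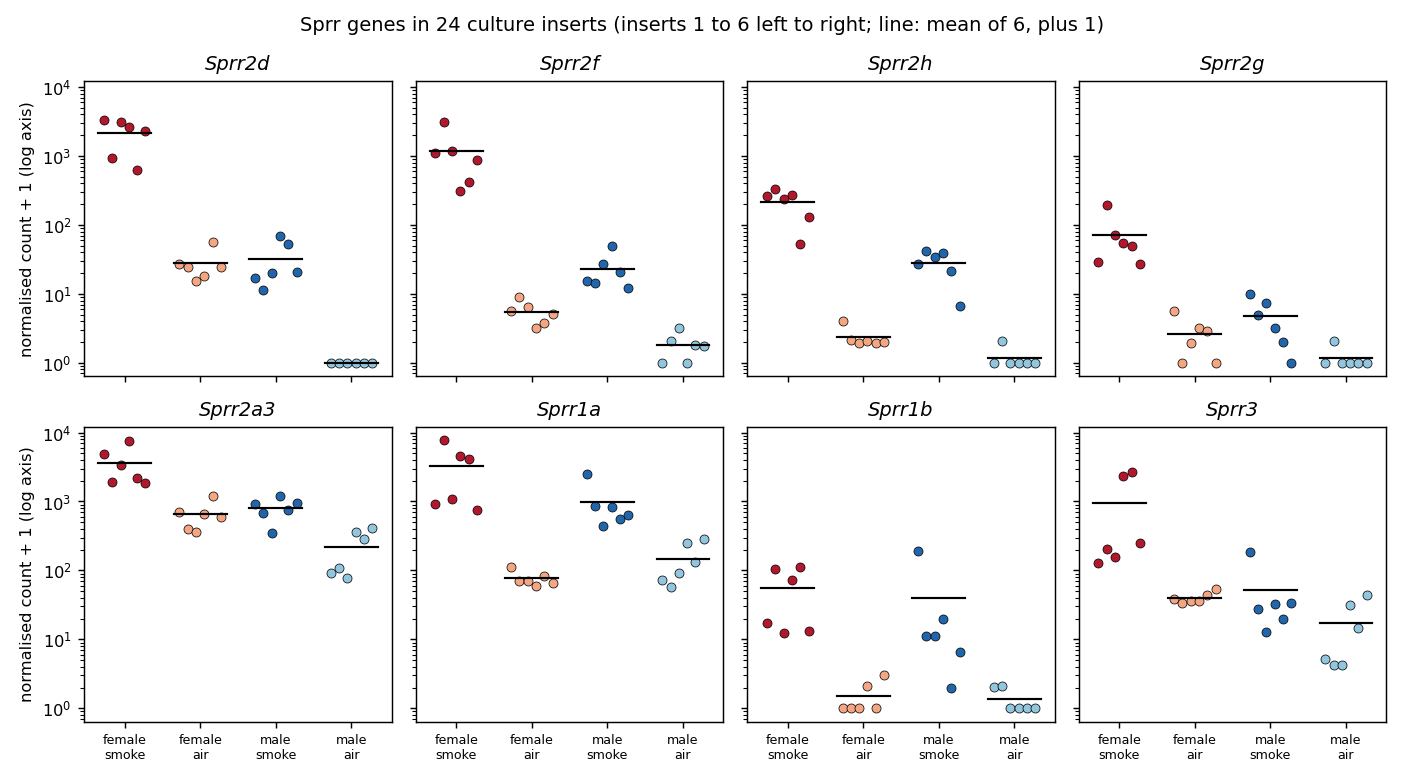
Normalised count plus 1 (log axis) of each gene in the 24 libraries, 1 panel per gene. Each point is 1 insert, inserts 1 to 6 run left to right within a group, and the line is the mean of 6 plus 1. Female smoke points lie above female air points in all 8 panels, and male smoke and male air points overlap for Sprr1b, Sprr2a3, Sprr2g and Sprr3.

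In male cells the 8 genes were again higher on average under smoke, with 4 of them separated from air without overlap. These were Sprr1a, Sprr2d, Sprr2f and Sprr2h; 11.0% of all tested genes were separated in that direction. The fit called 7 of the 8 higher, against 9.76% of all tested genes, and did not call Sprr3. Here too the genes were chosen with this comparison known, and the male and female comparisons share no libraries.

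Sprr2d had no read in any of the 6 male air libraries, while male smoke held 15.9, 10.3, 19.4, 67.7, 52.4 and 19.4 normalised counts in inserts 1 to 6. The 137 reads of the 5 male smoke libraries with recovered reads make it at least 51.5-fold higher, with 3 reads over male air as the floor, and at least 34.0-fold without male smoke insert 4. Sprr2f had 11.3, 17.0 and 47.7 as its lowest, median and highest values in male smoke, against 0, 0.759 and 2.21 in male air. All smoke inserts were above all air inserts, and the log2 fold change was 3.63 ± 0.45, with a ratio of means of 27.6 that was 42.5 without male air insert 3. Sprr2h had 5.67, 29.9 and 40.4 in male smoke, while in male air insert 2 alone held 1 read. The ratio was 178 with a counting interval of 31.5 to 7080.4, or at least 50.6-fold without male air insert 2, and the log2 fold change was 4.44 ± 0.43. Sprr2g, with 0 to 8.83 in male smoke and 1 read in all of male air, overlapped, and its ratio was 27.1 (interval 4.41 to 1113), or at least 7.69-fold without male air insert 2. Its log2 fold change of 1.69 ± 0.55 (adjusted p = 0.0303) was called under 16 of 26 alternatives, and not without male smoke insert 1 (adjusted p = 0.0898).

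Sprr2a3 had 348, 828 and 1190.7 in male smoke, against 76.2, 195 and 405 in male air, a log2 fold change of 2.08 ± 0.44 and a ratio of 3.66. Within inserts 4 to 6 the log2 fold change was 1.46 and not called (adjusted p = 0.0861). Its lowest smoke insert lay within the air range. Sprr1a had 2529, 857, 436, 841, 547 and 627 in male smoke inserts 1 to 6, against 71.5, 56.9, 89.5, 246, 130.1 and 288 in male air inserts 1 to 6. Smoke insert 1 was the highest by a wide margin, and air inserts 4 to 6 all lay above air inserts 1 to 3. The log2 fold change was 2.71 ± 0.53 over all inserts with a ratio of means of 6.62, 3.76 within inserts 1 to 3, and 1.65 and not called within inserts 4 to 6 (adjusted p = 0.122). The same split of male air was seen for Sprr2a3 and Sprr3, and no label ties insert numbers to a batch.

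Sprr1b had 187 in male smoke insert 1 and 0.989 to 18.9 in the other male smoke inserts, against 0 to 1.07 in male air. Its ratio was 147 (interval 40.2 to 1217), from 260 reads in 5 smoke libraries and 2 reads in 6 air libraries. Without male smoke insert 1, 48 reads remained and the ratio was 33.9; without male air insert 1 it was 248 and without male air insert 2 it was 249.99. Within inserts 4 to 6 the log2 fold change of 2.68 was not called (adjusted p = 0.114), against 3.42 ± 0.77 over all inserts. Sprr3 had 181 in male smoke insert 1 and 12.0 to 33.2 in the other smoke inserts, against 3.22 to 42.4 in male air. The groups overlapped, and the log2 fold change of 1.60 ± 0.77 was not past the threshold (adjusted p = 0.139). The ratio of means was 3.13, and 1.51 without male smoke insert 1. The log2 fold change was 3.16 within inserts 1 to 3 and 0.05 within inserts 4 to 6.

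**Figure D3:**
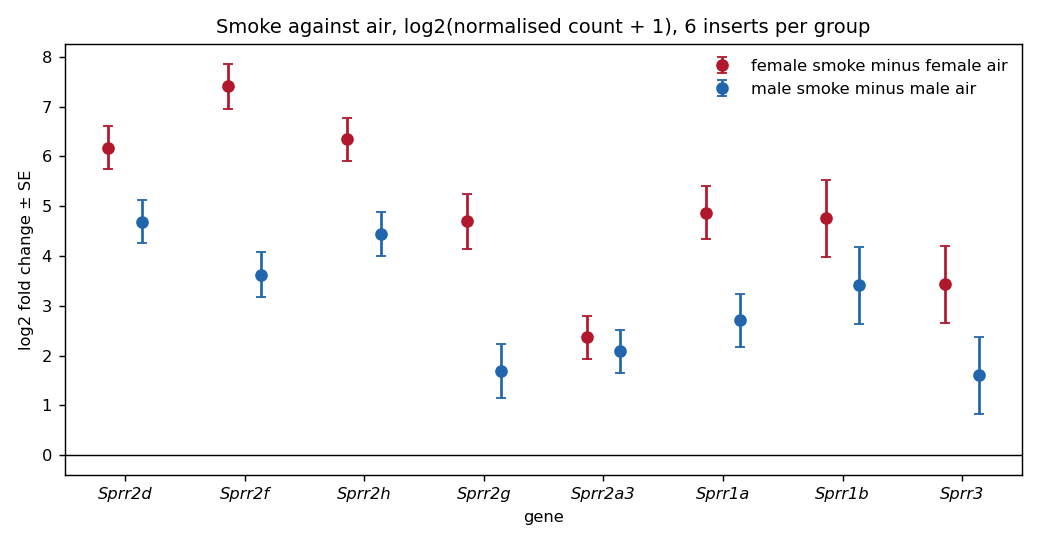
Log2 fold change of smoke against air with its SE, on log2(normalised count + 1), for female cells (red) and male cells (blue), 6 inserts per group. Sprr2f had the highest female value, 7.41, and Sprr3 the lowest male value, 1.60.

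The inserts high for 1 gene were not the inserts high for all. In female smoke, Sprr2d was highest in inserts 1 and 3 and lowest in insert 5, where Sprr1b and Sprr3 were highest. Sprr1a, Sprr2f, Sprr2g and Sprr2h were highest in insert 2, and Sprr2f was lowest in insert 4, where Sprr2a3 was highest. In male smoke, insert 1 led for Sprr1a, Sprr1b, Sprr2g and Sprr3, while insert 4 led for Sprr2a3, Sprr2d and Sprr2f. The highest female smoke insert exceeded the lowest by 4.01 times for Sprr2a3 and by 21.3 times for Sprr3.

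**Figure D4:**
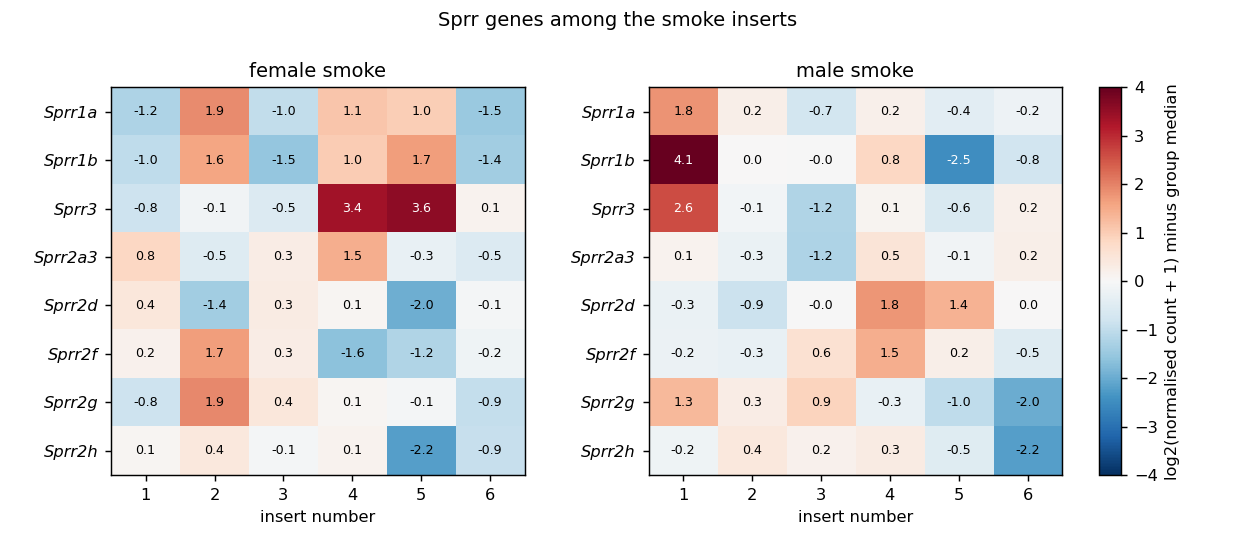
Each cell gives log2(normalised count + 1) of a gene in 1 smoke insert minus the median of its 6 inserts, female smoke on the left and male smoke on the right. Red is above the median and blue below it. Female inserts 4 and 5 stand out for Sprr3 and male insert 1 for Sprr1a, Sprr1b and Sprr3.

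Levels between genes were compared as normalised counts per kilobase of exon. In female smoke the order was Sprr2a3 at 4220.2 ± 2594 (SD, n = 6), Sprr1a at 4069.9 ± 3571, Sprr2d at 3162 ± 1645, Sprr2f at 1916 ± 1662, Sprr3 at 781 ± 984, Sprr2h at 282 ± 136, Sprr2g at 107 ± 96.6 and Sprr1b at 66.9 ± 58.1. Of neighbours in that order, Sprr2h and Sprr2g alone differed by more than both SDs. In female air Sprr2a3 led at 772 ± 360, apart from Sprr1a at 95.7 ± 24, which in turn stood apart from Sprr2d at 39.1 ± 21.1 and Sprr3 at 32.2 ± 6.15. The other 4 genes averaged at most 7.39 per kilobase there. In male smoke Sprr1a, at 1232 ± 987, and Sprr2a3, at 947 ± 336, led, and the other 6 averaged between 5.75 and 47.4. In male air Sprr2a3 at 259 ± 172 and Sprr1a at 186 ± 123 were followed by Sprr3 at 13.2 ± 13.6, and the other 5 averaged at most 1.31.

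The female and male air groups were also set against each other. Their libraries are the controls of both smoke comparisons, and low air values helped choose the genes, so these p-values are not fully independent of that choice. Sprr2d, Sprr2a3 and Sprr2f were higher in female air than in male air, 3 of 8 genes, against 20.0% of all tested genes called in that direction. None was called lower, against 19.0% of all tested genes. Sprr2d, with 14.6 to 54.7 normalised counts in female air and none in male air, was the 1 gene of the 8 whose groups did not overlap (16.6% of all tested genes were separated this way). It held 152 reads in female air, at least 57.1-fold higher with 3 reads over male air as the floor, and its log2 fold change was 4.66 ± 0.43 (adjusted p = 1.02e-08). Sprr2a3 was higher by 1.77 ± 0.44 (adjusted p = 0.00249). Sprr2f, at 4.50 ± 2.06 in female air and 0.800 ± 0.818 in male air (SD, n = 6), was higher by 1.65 ± 0.45 (adjusted p = 0.00603). The Sprr2a3 call was lost within inserts 4 to 6 alone (adjusted p = 0.0693), and the Sprr2f call there (adjusted p = 0.0595), with a pseudocount of 5 (0.152), with quantile scaling (0.165) and with edgeR (0.0609).

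The other 5 genes were not called between the sexes in air in this fit. Sprr3 differed by 1.85 ± 0.77 (adjusted p = 0.0598) and Sprr2h by 1.0 ± 0.43 (adjusted p = 0.0703), the 2 nearest to the threshold. Both were called with the insert number as a block (adjusted p = 0.05 as rounded for Sprr3 and 0.0414 for Sprr2h), and over all alternatives Sprr3 was called in 5 of 27 and Sprr2h in 4 of 27. Sprr1a was the 1 gene with a lower mean in female air, at 75.6 ± 19.0 against 147 ± 97.1 in male air, and its log2 difference of -0.72 ± 0.53 was not past the threshold (adjusted p = 0.292). In the authors' deposited table, with the sign turned to female over male, its log2 fold change was -0.92 (adjusted p = 0.0335). Sprr1b and Sprr2g had 3 and 8 reads over 6 female air libraries, and 2 and 1 reads over 6 male air libraries.

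Under smoke the 5 Sprr2 genes among the 8 were each higher in all 6 female inserts than in any male insert. Of all tested genes 9.57% were separated this way. Sprr1a, Sprr1b and Sprr3 overlapped between the sexes. The ratio of the female smoke mean to the male smoke mean was 69.8 for Sprr2d, 52.9 for Sprr2f, 18.7 for Sprr2g, 7.75 for Sprr2h and 4.46 for Sprr2a3. It was 18.9 for Sprr3, 3.30 for Sprr1a and 1.41 for Sprr1b. Without male smoke insert 1 it was 39.1 for Sprr3 and 5.96 for Sprr1b. Without female smoke insert 5 it was 12.1 for Sprr3, and without female smoke insert 2 it was 12.0 for Sprr2g. These ratios are a description and hold the difference in air as well. Sprr2f, Sprr2g and Sprr2h averaged at most 27.4 in male smoke and 4.50 in either air group, and passed the filter through female smoke. A higher female value was thus in part built into their choice.

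The difference of the smoke response between the sexes was tested as an interaction, the female fold change minus the male fold change. It is built from the comparisons that chose the genes, so its p-values are not independent of that choice. Sprr2f, Sprr2g and Sprr2h also passed the filter through their female smoke values, which favours a higher female response. Sprr2f was the 1 gene of the 8 called, at 3.78 ± 0.64 on the log2 scale (adjusted p = 0.0051), against 0.694% of all tested genes called with a higher female response. It was called under 36 of 38 alternatives; edgeR gave 3.38 (adjusted p = 0.361) and inserts 4 to 6 alone 2.95 (adjusted p = 0.0512). Sprr2g followed at 3.01 ± 0.78 (adjusted p = 0.0625), Sprr1a at 2.16 ± 0.75 (adjusted p = 0.181), Sprr2h at 1.90 ± 0.61 (adjusted p = 0.145) and Sprr3 at 1.83 ± 1.08 (adjusted p = 0.521). Sprr2a3 had 0.28 ± 0.62 and Sprr1b 1.34 ± 1.09 (adjusted p = 0.917 and 0.685). Male air held 1 read each of Sprr2g and Sprr2h, a level at which this scale understates fold changes. The female and male smoke to air ratios of means were 157 and 153 for Sprr2h, and 44.1 and 20.9 for Sprr2g. Over all alternatives the difference ran between 0.52 and 2.45 for Sprr2h and between 1.43 and 3.43 for Sprr2g.

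Sprr2d shows how a group with no reads bears on such a difference. Its value was 1.49 ± 0.61 (adjusted p = 0.278) with a pseudocount of 1 and 3.35 (adjusted p = 0.00329) with a pseudocount of 5, while edgeR gave -1.42 and DESeq2 -0.89 on whole reads. The male fold change has no upper bound, since male air held no read, and so no direction can be given for Sprr2d.

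**Figure D5:**
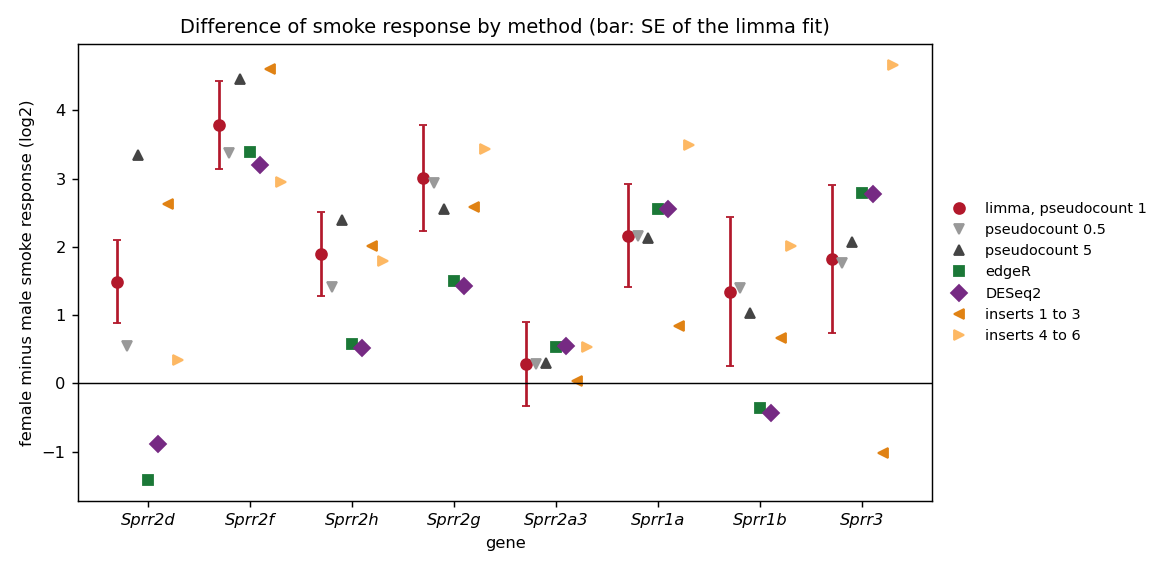
Female smoke response minus male smoke response (log2) of each gene by limma with its SE, with pseudocounts of 0.5 and 5, by edgeR and DESeq2 on whole reads of 23 libraries, and within inserts 1 to 3 or 4 to 6. Sprr2f lies between 2.95 and 4.61 in all 7 settings drawn, while Sprr2d, Sprr1b and Sprr3 fall on both sides of 0.

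The other Sprr genes of the table had too few reads for the fit. Sprr2e, whose promoter window shares 89.2% with that of Sprr2d, had 150 reads in female smoke and 2 in female air. Its ratio was 73.4 (interval 20 to 612), or 123 without female air insert 4 and 121 without female air insert 6. In male cells it had 17 reads in 5 smoke libraries and 1 in air, a ratio of 19.2 (interval 3.0 to 801), or at least 5.48-fold without male air insert 3. Sprr2k had 15 reads in female smoke and 0 in female air, at least 4.89-fold higher. Of those 15 reads 4 remained without female smoke insert 4, at least 1.53-fold higher. It had 119 reads in male smoke and 0 in male air, at least 44.7-fold higher, and at least 14.1-fold without male smoke insert 1. Male smoke insert 1, high for Sprr1a, Sprr1b and Sprr3, also held the most Sprr2k, at 78.6. Unlike the Sprr2 genes that passed the filter, Sprr2k was not higher in female smoke than in male smoke. Its median was 5.18 (1.62 to 78.6) in male smoke and 1.14 (0 to 13.2) in female smoke, and the groups overlapped. Sprr2e went the other way, at 9.13 to 45.6 in female smoke and 0 to 13.8 in male smoke. These differences between the sexes were not tested. Of the other rows, Sprr2j-ps, a pseudogene, had 31 reads in female smoke and 0 in female air. In male cells Sprr2j-ps had 45 reads in 5 smoke libraries and 1 in air, a ratio of 50.7 (interval 8.65 to 2048). That ratio was 18.4 without male smoke insert 1, and at least 13.5 without male air insert 5. Sprr2b, Sprr2i and Sprr4 had at most 12 reads in any group.

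Among the genes that flank the cluster, involucrin (Ivl), an envelope scaffold protein, had 56.7, 109 and 396 as its lowest, median and highest values in female smoke, against 47.7, 55.5 and 85.2 in female air. Its log2 fold change was 1.0 ± 0.54 in female cells (adjusted p = 0.156) and 2.92 ± 0.54 in male cells (adjusted p = 0.000506), where smoke insert 1 was highest at 1348. Loricrin (Lor), another envelope protein, did not pass the test in female cells (-0.45 ± 0.27, adjusted p = 0.215) or male cells (-0.36 ± 0.27, adjusted p = 0.376). Prr9, Lelp1, Smcp and Lce6a averaged under 1 normalised count.

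The envelope list had 15 tested genes beyond the Sprr family, of which 7 rose in female cells and 7 in male cells, where 15.5% and 9.76% of all tested genes rose. This list, and the keratin and regulator lists below, were chosen with earlier results of these data known. Their counts are therefore a description, and no enrichment is read from them. One of the male calls, Tgm3, a transglutaminase, was not made by edgeR (adjusted p = 0.331) or DESeq2 (0.142). None fell in either sex, also at an unadjusted p under 0.05 in limma and in the edgeR and DESeq2 tests; of all tested genes 19.3% fell in female cells and 12.2% in male cells. Krtdap, a secreted keratinocyte protein, differed by 4.36 ± 0.76 in female cells (adjusted p = 0.000231) and by 0.18 ± 0.76 in male cells (adjusted p = 0.887). Cst6, a cysteine protease inhibitor of cornifying cells, rose by 3.30 ± 0.52 in female cells and by 4.33 ± 0.52 in male cells. Cornifelin (Cnfn), an envelope protein, rose by 3.87 and 2.97 in female and male cells, cornulin (Crnn) by 3.52 and 1.80. The medians over the list were 0.58 in female cells and 0.63 in male cells, while those over all tested genes were -0.003 and -0.006. The response differed between the sexes for Rptn (2.75 ± 0.62, adjusted p = 0.0301) and Sbsn (-2.44 ± 0.55, adjusted p = 0.0304; 0.340% of all tested genes were called with a lower female response), named after their values were seen.

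Of 8 squamous keratins, 4 rose and 1 fell in female cells, where 15.5% of all tested genes rose and 19.3% fell. In male cells 4 rose and 1 fell, where 9.76% of all tested genes rose and 12.2% fell. Krt6b, a keratin of activated epithelium, had 3184 to 8644 normalised counts in female smoke, against 70.3 to 217 in female air, and 87.4 to 293 in male smoke, against 0 to 10.1 in male air. It rose by 5.52 ± 0.44 and 5.32 ± 0.44 in female and male cells, and its near copy Krt6a by 1.71 and 3.43, so reads may have been split between them. The Krt6a response differed between the sexes (-1.72 ± 0.42, adjusted p = 0.0463). Krt16, their usual partner, rose by 3.22 and 2.05. Krt17 rose by 1.28 in female cells and was not called in male cells (1.13, adjusted p = 0.0527; 0.0352 with edgeR). Krt1, the suprabasal keratin of skin, fell by 1.27 in female cells and by 0.95 in male cells.

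Of 25 regulators of squamous genes, 10 rose and none fell in female cells by limma, edgeR or DESeq2, against 15.5% and 19.3% of all tested genes. In male cells 6 rose and 3 fell, against 9.76% and 12.2% of all tested genes, so the share that fell was near that of all genes. Fosl1, an AP-1 subunit, rose by 3.25 ± 0.72 in female cells and was not called in male cells (1.66 ± 0.72, adjusted p = 0.0998; called by edgeR, 0.00874), with no called difference between the sexes (1.59 ± 1.01, adjusted p = 0.558). Klf4, a factor of barrier formation, rose by 1.25 and 1.76 in female and male cells, and Prdm1, a repressor active in cornifying cells, by 1.27 and 1.5. Atf3, a stress-induced AP-1 partner, rose by 1.55 in female cells (adjusted p = 0.0106). The response differed between the sexes for Grhl1 (0.87 ± 0.14, adjusted p = 0.00298) and Junb (0.90 ± 0.22, adjusted p = 0.0476, and 0.0776 with edgeR). Both were named after their values were seen. By limma Grhl1 was called higher in female cells (0.40, adjusted p = 0.00371) and lower in male cells (-0.48, adjusted p = 0.00141).

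Markers of other cells were counted beside these values, against 15.5% of all tested genes called higher and 19.3% lower in female cells, and 9.76% and 12.2% in male cells. All 8 ciliated markers fell in female cells by limma and DESeq2 (list median -2.76), and 6 of 8 by edgeR. In male cells the list median was -1.10 and none was called by limma, edgeR or DESeq2, nor had an unadjusted p under 0.05 in limma. Their summed level was 151 to 16008 in female smoke, against 14407 to 37783 in female air, and 384 to 5506 in male smoke, against 4315 to 7881 in male air. Secretory markers summed to 25448 to 139134 in female smoke, against 144566 to 358408 in female air, and to 74397 to 254857 in male smoke, against 389561 to 670240 in male air. Of 6 tested, 4 fell in female cells and 2 in male cells. Basal markers summed to 266087 to 423789 in female smoke, against 186698 to 282394 in female air, and to 128350 to 271839 in male smoke, against 185588 to 232859 in male air. Of the 8 basal markers, 1 rose and 1 fell in female cells and 2 rose and 2 fell in male cells, and the sums overlapped between smoke and air in both sexes. Leukocyte markers summed to 1145 to 4007 in female smoke, against 489.9 to 1777 in female air, and to 403 to 828 in male smoke, against 96.3 to 233 in male air. In female cells most of that sum was Itgam, at 2207 ± 980 in female smoke and 1206 ± 427 in female air (SD, n = 6), while the pan-leukocyte marker Ptprc averaged 1.49 in female smoke and 2.18 in female air. Of 8 leukocyte markers 2 were tested: Cd68 rose in both sexes and Itgam in male cells, while the B-cell marker Ms4a1 was at 0 in all 4 groups. Fibroblast markers summed to 22.8 to 159.5 in female smoke, against 290.2 to 1509 in female air, and to 29.7 to 97.0 in male smoke, against 167 to 429.6 in male air, with Lum at 0 in both smoke groups. Both fibroblast markers tested, of 7, fell in each sex by limma, and 1 of them in male cells by edgeR. Their part in the Sprr values was not tested.

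Profiles over the 24 libraries were compared with the mean centred profile of the 8, leaving out predicted and clone-named genes. The nearest outside the family were Slurp1, Tubb3, Ifi209, Tmprss11e, Cysrt1 and Ifit1bl1. Likeness was the root mean square log2 difference, which was 0.73 for Slurp1 and 1.08 for Ifit1bl1. Slurp1, a secreted protein of keratinocytes, averaged 181 ± 60.3 in female smoke, against 7.07 ± 5.66 in female air, and 38.0 ± 25.9 in male smoke, against 3.12 ± 1.94 in male air (SD, n = 6 each). Tmprss11e, a serine protease of squamous epithelium, averaged 1744 ± 639 in female smoke, against 180.3 ± 84.3 in female air, and 509 ± 225 in male smoke, against 66.3 ± 33.2 in male air. Tubb3, a tubulin best known from neurons, differed by 5.45 in female cells and 3.78 in male cells. Ifi209 and Ifit1bl1, genes of interferon-induced families, differed by 3.10 and 3.73 in female cells and by 3.54 and 2.19 in male cells. These genes were picked for likeness, so their values are a description.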

How the data were processed

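RNA was sequenced from 24 inserts in 4 groups of 6. The authors deposited normalised counts per gene, a signal made with DESeq2 per the file headers and submitters' processing notes, and 3 tables of comparisons that hold, per the file headers, a log2 fold change, a Wald score and a p-value. Tools in the submitters' processing notes are Trimmomatic 0.38.0, FastQC 0.11.9, DESeq2 and HTSeq, and the builds are mm10 and GRCm38. Aligner and strandedness: not given in the sources used here. The NEBNext Ultra II kit was used, per the labels' protocols. Gene positions are deposited on mm10. Whole reads were recovered from the deposited steps for 23 libraries, within 0.001 reads. Male smoke insert 5 was left out of count tests and read ratios.

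The 8 genes and all lists were chosen with earlier results of these data known. One fit of limma 3.58.1 (R 4.3.3, eBayes with trend, 1 term per group, all 24 libraries) on log2(normalised count + 1) covered 13549 of 25239 genes, with a mean of at least 10, and was tested on simulated data. Genes were called at a two-sided Benjamini-Hochberg adjusted p under 0.05. Ratios with 1 to 3 reads in a group carry a 95% exact counting interval, and a group with no reads is set at 3 reads; both cover counting error only, as the reads carry no molecular identifiers. Alternatives were other scalings, pseudocounts of 0.5 and 5, other filters, robust eBayes, the groups compared alone, an insert block, leaving out libraries, inserts 1 to 3 or 4 to 6, edgeR 4.0.16 and DESeq2 1.42.0. The deposited fold changes run smoke to air and female to male, and their sign was turned. Named genes are the 8, the other Sprr rows, the 4 largest called changes per list, the 6 nearest profiles and the 3 flanking genes on each side. Read ratios and ratios of means without each library, and the list genes by edgeR and DESeq2, were alternatives chosen after seeing the data. Cell type markers were counted and summed. Exon lengths and positions came from the deposited mm10 annotation, shared 50-base stretches from GENCODE M21.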

Additional observations from a re-analysis of the deposited data

Results flagged for a closer look

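Within groups of 6 inserts, 6 of the 24 gene and group combinations checked had 1 insert farther from the rest than Dixon's 95% limit allows. The limit was applied to normalised counts, not to their logarithms. It is set for about 1 in 20 among normally spread values. Normalised counts are skewed upward, so the rate to be met here by chance is not known. Male smoke insert 1 was such an insert for Sprr1a, at 2529 normalised counts against 857 in the next insert, for Sprr1b, at 187 against 18.9, and for Sprr3, at 181 against 33.2. Female smoke insert 2 was one for Sprr2f, at 3100.4 against 1192, and for Sprr2g, at 194 against 69.5. Female air insert 5 was one for Sprr2d, at 54.7 against 25.9. Without male smoke insert 1 the male log2 fold change was 2.38 for Sprr1a, 2.66 for Sprr1b and 1.11 for Sprr3, and without female smoke insert 2 the female one was 7.05 for Sprr2f and 4.33 for Sprr2g.

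The smoke response of Sprr2f differed between the sexes in the main fit, by 3.78 on the log2 scale (limma interaction, adjusted p = 0.0051). It was not called by edgeR (adjusted p = 0.361). The gene was chosen with both smoke comparisons known and passed the filter through its female smoke values. Sex cannot be told apart from preparation. Every smoke insert was above every air insert in both sexes. Of all tested genes, 6.73% were separated this way in female cells and 11.0% in male cells.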

How the results depend on the processing

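The 8 genes kept a positive smoke difference in both sexes under every alternative run. Of the 8, the count called higher in the male comparison, 7, was 3 within inserts 4 to 6. The count called in female over male air, 3, was 5 with the compared groups alone, 5 with the insert number as a replicate block and 1 within inserts 4 to 6. The count called in the interaction, 1, was 2 with quantile scaling, 4 with a pseudocount of 5, 2 without female air insert 1 and female smoke insert 4, 3 within inserts 4 to 6, 0 with edgeR and 2 with DESeq2, and 1 to 2 with single inserts left out. At an unadjusted p under 0.05, limma's interaction held 5 of the 8. Sprr1b in female over male air, 0.10, was -0.27 with quantile scaling, -0.69 within inserts 1 to 3, and between -0.13 and 0.24 with single inserts left out, including -0.03 without female air insert 4. Sprr1a there was 0.17 within inserts 1 to 3. The Sprr3 interaction was -1.01 within inserts 1 to 3, the Sprr1b interaction -0.35 with edgeR and -0.43 with DESeq2, and the Sprr2d interaction -1.42 and -0.89. The causes were not tested. Same-numbered inserts correlated between female smoke and female air at -0.206 to 0.367, over 0.1 in 5 of 6 pairs, and between male smoke and male air at -0.242 to 0.124, over 0.1 in 2 of 6, so, short of every pair, the numbers were not taken to pair the inserts. Over all genes, the interaction called 140 and between 40 and 840 across alternatives. Library-total scaling moved the median of all genes in female over male air to -0.115 from 0.019, with 2083 called higher and 3387 lower, against 2713 and 2569. Low read numbers in air limit Sprr1b, Sprr2d, Sprr2f, Sprr2g and Sprr2h.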
